A study of Arabidopsis thaliana with 12 samples.

Results

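Root protoplasts given dexamethasone (DEX) together with cycloheximide (CHX) were compared with root protoplasts given CHX alone. The arrays were chosen by their treatment labels: 3 arrays carry both agents and 3 carry CHX without DEX, so the comparison rests on 6 of the 12 arrays of the series. Protoplasts are plant cells freed of their walls, and these came from roots of Arabidopsis thaliana, ecotype Columbia. Per the labels they had been transformed with ABI3-GR, and all 4 treatment groups used such cells. In constructs of this kind the transcription factor is joined to the hormone-binding part of the glucocorticoid receptor, which keeps it out of the nucleus until DEX binds. DEX was given at 10 µM and CHX, an inhibitor of protein synthesis, at 35 µM. The other 6 arrays hold cells with neither agent (untreated, 3 arrays) and cells with DEX alone (3 arrays). The promoter of the construct, the share of cells that took it up and the length of the treatments are not given in the sources used here. Arrays of cells without the construct were not analysed here, so a response to DEX through ABI3 and one to DEX itself cannot be told apart.

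The comparison is meant to ask which transcripts respond to nuclear ABI3 when no newly made protein can stand between the factor and the gene. How fully CHX blocked protein synthesis was not examined here. ABI3 (ABSCISIC ACID INSENSITIVE 3) is a transcription factor of the B3 family, best known for turning on the genes of late seed development and for linking them to the hormone abscisic acid (ABA). Seeds at that stage lay down storage proteins and oil and fill their cells with late embryogenesis abundant (LEA) proteins, small hydrophilic proteins that protect cells during drying.

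Each value below is a level on the log2 scale, the log2 of the deposited intensity after a floor of 16, so that 4 is the lowest level possible. Changes are log2 differences between group means of 3 arrays, with the standard error (SE) of a limma fit to all 12 arrays. A probe set was called when its limma p-value, adjusted by the Benjamini-Hochberg method over 22746 probe sets, was under 0.05. Precision is limited by the number of arrays. Whether replicates came from separate preparations is not in the labels, and p-values therefore measure the spread between these samples only. In such bulk samples fewer cells of a type and less RNA per cell cannot be told apart.

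Across all probe sets the arrays with CHX alone correlated with each other at 0.938 to 0.950 and those with both agents at 0.893 to 0.925, while pairs of 1 array from each of these groups correlated at 0.908 to 0.927. Replicate 1 of CHX alone stood apart in its hybridisation controls, whose geometric mean was 230.7, while it ranged from 8733 to 15996 elsewhere. Ratios of 3′ to 5′ signal, which rise with RNA breakdown or short labelling, were higher with both agents: 6.51 to 8.01 against 5.08 to 6.10 for the first ubiquitin pair, 4.86 to 8.59 against 3.89 to 3.95 for the second, and 2.50 to 4.33 against 2.19 to 2.30 for 1 of the GAPDH pairs. The other GAPDH pair (1.13 to 1.45 against 1.05 to 1.27) and both actin pairs overlapped between the groups. The part of RNA quality in the changes below was not tested. Over all probe sets the median change was -0.12, and it became 0.04 with arrays centred on their medians and -0.01 after quantile normalization, so changes are best read relative to it. The label of root cells could be checked on few markers: of 23 root cell type markers 3 were measured, all dim, with summed intensities of 87.8 to 204 with CHX alone and 104 to 160 with both agents. EXPA7 was at the floor on 1 array of CHX alone and 2 of both, EXPA18 on 2 of both, and AT1G09750 on none of these 6. Of 19 leaf photosynthesis markers 2 were measured, with summed intensities of 543 to 614 and 690 to 1031.

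DEX in the presence of CHX raised a small set of transcripts, among them genes of LEA proteins, cupins and an oleosin. Of the 22746 probe sets 62 were called (0.273%), 58 of them higher (0.255%) and 4 lower (0.0176%). The higher ones included 36 probe sets that stand for 1 gene each, 0.27% of the 13355 genes represented, and no gene with a name in the annotation was called lower. These 36 genes rose by 0.88 to 4.86 on the log2 scale, with a median of 1.75, or 3.36-fold. In 34 of them the rise was at least 2-fold and in 13 at least 4-fold. All 3 arrays with both agents lay above all 3 with CHX alone in each of the 36, a separation found in 4.16% of all genes. The 36 were called on these same arrays, so their separation is no further support for the calls. None of the 36 had an array at the floor. Averaged over the 36 genes, the level ran from 9.83 to 10.30 with CHX alone and from 11.69 to 12.01 with both agents.

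**Figure D1:**
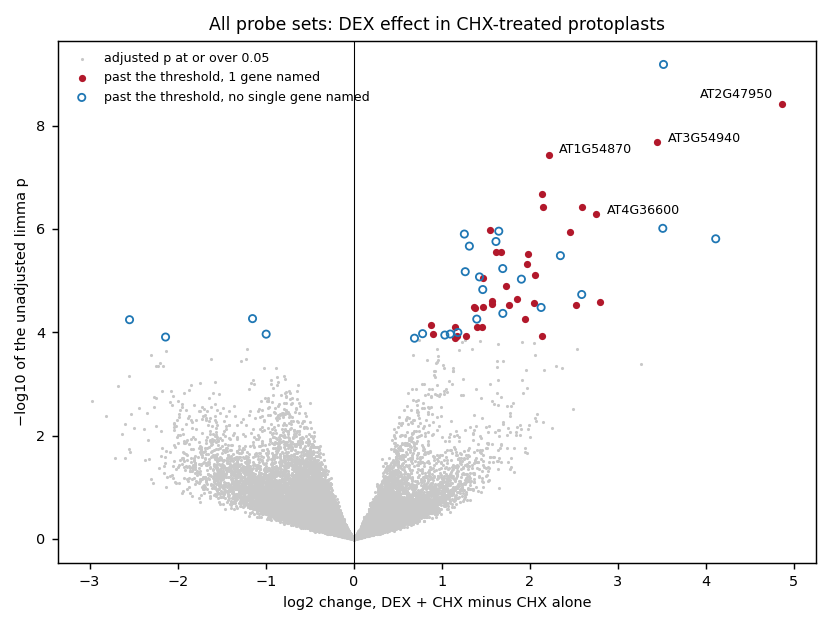
Each point is a probe set, with the log2 change from CHX alone to DEX with CHX on the x axis and −log10 of the unadjusted limma p on the y axis; filled red points are the 36 called genes, open blue points the called probe sets without a single named gene, and grey points the rest. Of the 62 called probe sets 58 lie right of 0 and 4 left of it.

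How many probe sets passed depended on single arrays. Dropping replicate 2 of CHX alone left 21 calls and dropping its replicate 3 left 28. Dropping replicate 1 of both agents left 30, as did dropping its replicate 3, whereas dropping its replicate 2 gave 112, of which 69 were higher and 43 lower. With 2 arrays left out together, replicate 1 of CHX alone and replicate 3 of both, an alternative chosen after the data were seen, it was 29. A limma fit to only the 6 arrays compared called 0, with 1608 at an unadjusted p under 0.05; all 36 genes were among these 1608, and their lowest adjusted p was 0.0551. Among the 36 genes, 11 kept their call in each of the 22 alternatives other than that fit: AT2G47950, AT3G54940, AT4G36600, AT5G45690, AT1G54860, AT1G54870, LEA18, AT3G53040, AT1G27461, AT1G04560 and AT5G35580. No change of the 36 genes went under 0 in any of these fits. In each of them all arrays with both agents lay above all with CHX alone, so leaving out arrays could not turn the sign. Other variance models and a 2-fold minimum leave the change itself as it is. The kept sign is therefore no measure of stability.

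The steepest rise belonged to AT2G47950, a gene of unknown function here. With CHX alone it read 6.47, 7.02 and 7.22, and adding DEX brought it to 11.67, 11.00 and 12.63. The lowest array with both agents thus lay far above the highest with CHX alone, and the difference was 29.1-fold (limma log2 change 4.86, SE 0.34; adjusted p = 4.31e-05). Next to it in the genome lies AT2G47960, which also rose, 5.76-fold, from 6.12, 5.50 and 5.52 to 8.48, 7.55 and 8.69 (log2 change 2.53, SE 0.40; limma adjusted p = 0.0186). This second gene lost its call in 7 of 22 alternatives. A further pair of neighbours also rose together. AT1G54860, which encodes a glycoprotein anchored to the cell surface by a lipid tail, went from 9.55, 8.22 and 8.56 to 11.37, 11.12 and 11.19, a 5.47-fold rise (limma adjusted p = 0.00214). AT1G54870, which encodes an NAD(P)-binding enzyme of the short-chain dehydrogenase family, went from 9.11, 9.22 and 9.41 to 11.04, 11.77 and 11.57, a 4.64-fold rise with tight replicates (log2 change 2.21, SE 0.19; limma adjusted p = 0.000215). In both genes of this pair the groups were separated by more than 1 on the log2 scale.

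No other called genes were immediate neighbours among those measured. The 36 genes lie on all 5 chromosomes, with 8, 10, 10, 2 and 6 on chromosomes 1 to 5. Of their 72 immediate protein-coding neighbours, counted for each gene, 35 had a measurement and 37 had none, and the 4 that were called are the members of the pairs above counted from each side. The other 31 had changes between -1.24 and 1.44 with a median of 0.0064, and 16 of them were above 0. The highest of these belonged to AT1G50760, the neighbour of the called gene AT1G50750, and was not called (SE 0.58; limma adjusted p = 0.578).

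The list with the most called genes was that of LEA and seed maturation proteins. The list of LEA and dehydrin genes had 38 entries, 25 of which were measured. Of these 8 rose, none fell and 17 were not called, against 0.27% higher among all genes. This and the other lists were chosen with earlier results of these data known, so such contrasts are no independent support. Changes were above 0 in 20 of 25 (80%), beside 38.8% of all genes, and their median was 0.89, beside -0.13 over all genes. In 13 of 25 (52%) the arrays were separated upward, beside 4.16% of all genes. With replicate 2 of CHX alone left out, 3 members rose. Leaving out its replicate 3, or replicate 1 or 3 of both agents, gave 4 in each case, centring gave 5 and a floor of 64 gave 4.

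AT3G22490, which encodes a seed maturation protein, read 5.12, 5.26 and 5.47 with CHX alone. It reached 8.34, 8.08 and 7.84 with both agents, a 6.95-fold rise (log2 change 2.80, SE 0.44; limma adjusted p = 0.0179) whose call was lost in 7 of 22 alternatives. The LEA gene AT4G36600 lay at 9.88, 8.90 and 9.07 with CHX alone and at 12.44, 11.67 and 12.02 with both, a 6.75-fold rise (log2 change 2.76, SE 0.30; limma adjusted p = 0.00145). LEA18 (AT2G35300) went from 11.08, 10.59 and 10.15 to 12.64, 12.70 and 12.94, 4.45-fold (limma adjusted p = 0.00124). The groups did not overlap in any of these genes, and the arrays with both agents were close together in LEA18.

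AT3G53040 had the smallest spread with CHX alone of these genes (SD 0.02, n = 3), at 12.21, 12.20 and 12.24, and with both agents it stood at 14.57, 13.97 and 14.52 (log2 change 2.14, SE 0.21; limma adjusted p = 0.000977). AtLEA4-1 (AT1G32560), at 13.07, 12.24 and 12.07 with CHX alone, reached 14.35, 14.25 and 14.70 (3.93-fold; limma adjusted p = 0.00506) and lost its call in 1 of 22 alternatives, without replicate 2 of CHX alone, and in the fit of only the 6 arrays compared. AT2G21490, a dehydrin gene listed under the symbol LEA, rose 3.40-fold, from 12.83, 12.22 and 11.53 to 13.91, 13.92 and 14.04 (limma adjusted p = 0.0186). Here the CHX-alone arrays were spread widely and those with both agents hardly at all. AT4G21020 rose 2.75-fold and LEA4-5 (AT5G06760) 2.63-fold, each with an adjusted p of 0.0368 in limma and each losing its call in 12 of 22 alternatives.

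Other LEA genes did not pass. AT2G42560 (log2 change 1.06, SE 0.26; limma adjusted p = 0.218), AT3G15670 (0.89, SE 0.22; limma adjusted p = 0.204) and AT3G17520 (0.95, SE 0.20; limma adjusted p = 0.0976) had separated arrays and missed the threshold. The dehydrin genes COR47 (0.21, SE 0.21) and LTI30 (0.09, SE 0.23), both known from cold and drought responses, and AT1G54410 (0.03, SE 0.31) had changes within about 1 SE of 0. The lowest of the list was AT2G03850 at -1.15 (SE 0.78), whose arrays with both agents ran from the floor to 8.14. These list members, and those not called in the lists below, were named after their values were seen.

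**Figure D2:**
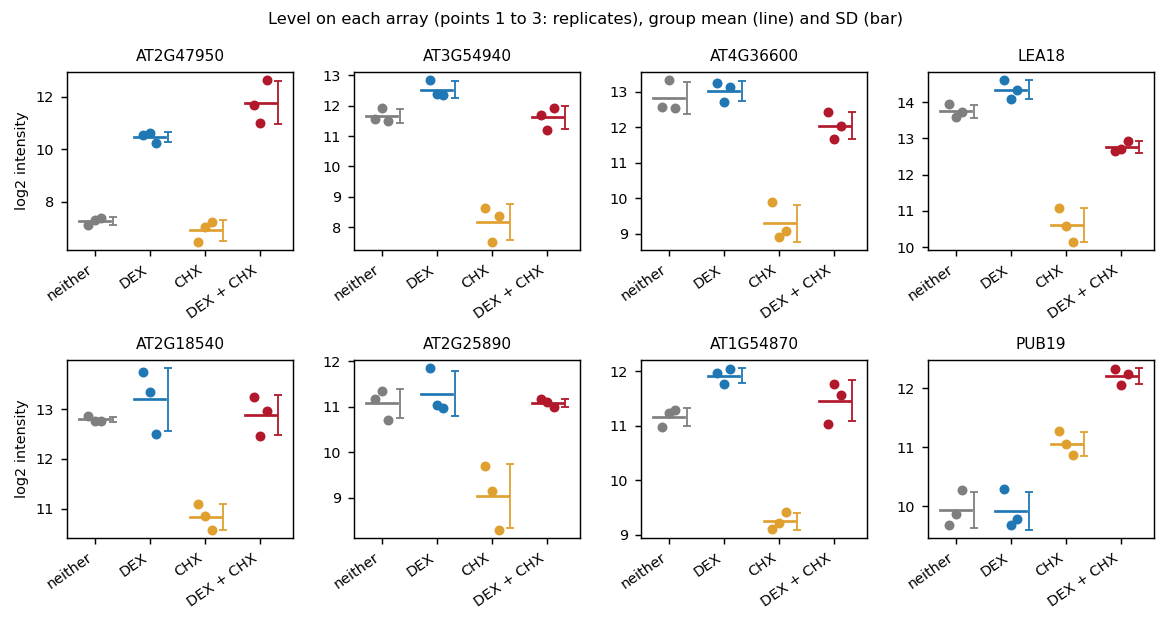
Each panel shows 1 of 8 called genes, with the log2 intensity of each array (points, replicates 1 to 3), the group mean (line) and the SD over 3 arrays (bar) for untreated cells, DEX alone, CHX alone and DEX with CHX; the y axes differ between panels and do not start at 0. In every panel the points of DEX with CHX lie above those of CHX alone.

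Genes of seed reserves followed, in smaller numbers. Of the storage protein and cupin list 7 of 15 entries were measured, 2 rose and none fell, beside 0.27% higher among all genes. The median change was 0.12, beside -0.13 over all genes. Both that rose encode cupins, relatives of the vicilin-type storage proteins. AT2G18540 rose 4.16-fold, from 11.09, 10.85 and 10.57 to 13.25, 12.46 and 12.97 (log2 change 2.06, SE 0.28; limma adjusted p = 0.00741). AT2G28490 rose 3.32-fold, from 6.94, 5.92 and 6.23 to 8.24, 8.18 and 7.86 (log2 change 1.73, SE 0.25; limma adjusted p = 0.0101). The 2 genes lost their calls in 6 and 4 of 22 alternatives, among them the fits without replicate 2 or 3 of CHX alone or replicate 1 of both. PAP85, a vicilin-like storage protein gene, had values of 4.89, 8.05 and 7.80 with both agents around 7.40, 6.91 and 6.09 with CHX alone, so its groups overlapped (log2 change 0.12, SE 0.66).

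In the oil body and storage lipid list, 5 of 18 entries were measured, 1 rose and none fell, beside 0.27% higher among all genes. The list median was -0.04, beside -0.13 over all genes. The gene that rose was AT2G25890, which encodes an oleosin, a protein that coats oil bodies. It stood at 9.69, 9.14 and 8.30 with CHX alone and at 11.16, 11.11 and 10.99 with both agents, a 4.13-fold rise (log2 change 2.05, SE 0.32; limma adjusted p = 0.0185). Another oleosin gene, AT3G01570, had arrays separated upward and a change of 1.46 that missed the threshold (SE 0.42; limma adjusted p = 0.33), while OLEO3 was at -0.04 (SE 0.53) and the oil-degrading lipase gene SDP1 at -0.09 (SE 0.22). AT3G54940 encodes a papain-type cysteine protease. It had the second largest rise of the named genes, 10.9-fold, from 8.63, 7.51 and 8.37 to 11.71, 11.21 and 11.94 (log2 change 3.45, SE 0.28; limma adjusted p = 0.000154), with no overlap between the groups.

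Stress and ABA response genes gave 2 further rises. Of the ABA, dehydration and cold response list 5 of 17 entries were measured, 2 rose and none fell, beside 0.27% higher among all genes. The list median was 1.15, beside -0.13 over all genes. AT3G02480, a gene for a small LEA-like protein known to respond to ABA, went from 13.74, 13.23 and 12.87 to 14.85, 14.61 and 15.09, 2.97-fold (log2 change 1.57, SE 0.25; limma adjusted p = 0.0185). PUB19 (AT1G60190), a U-box ubiquitin ligase gene that acts in drought and ABA responses, went from 11.27, 11.05 and 10.87 to 12.32, 12.05 and 12.25, 2.21-fold (log2 change 1.15, SE 0.20; limma adjusted p = 0.0368). Both groups of PUB19 were compact, yet its call was lost in 12 of 22 alternatives, centring and quantile normalization among them, and that of AT3G02480 in 8. Both calls of this list were lost with centred arrays and with a floor of 64. COR15B (1.22, SE 0.52), AT5G66780 (0.96, SE 0.20; limma adjusted p = 0.0954) and COR15A (-0.68, SE 0.65) were not called, and COR15A had 1 array with both agents at the floor. None of the 25 entries for ABA receptors, phosphatases, kinases and bZIP factors, nor of the 13 for ABA synthesis and breakdown, had a probe set named in the annotation used here.

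Regulators of the seed program were hardly covered. Of 20 entries for seed transcription factors 3 were measured and none was called: BZIP53, a partner of ABI3 on seed promoters, at 0.36 (SE 0.18), the gene AT4G18650 at 0.20 (SE 0.41) and EEL, a bZIP factor gene of late seed development, at -0.13 (SE 0.25). No probe set carries the name ABI3 in this annotation, and its level is not reported. Of 20 entries for seed chaperones, sugar enzymes and water channels 3 were measured and 1 rose, beside 0.27% higher among all genes. The gene that rose was AT1G04560, which encodes an AWPM-19-like membrane protein, at 11.45, 10.80 and 10.60 with CHX alone and 12.60, 12.34 and 12.78 with both (3.07-fold; limma adjusted p = 0.0036). The small heat shock protein genes AT1G53540 (0.18, SE 0.33) and AT2G29500 (-0.15, SE 0.20) were not called.

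The lists held 14 of the 36 genes, and the other 22 were found through the fit alone. One is a second short-chain dehydrogenase gene, AT3G05260, a relative of AT1G54870. Its CHX-alone arrays were far apart, at 7.21, 6.17 and 7.75, against 9.15, 8.78 and 9.61 with both agents (log2 change 2.14, SE 0.39; limma adjusted p = 0.0465), and the call was lost in 14 of 22 alternatives. AT5G35580, a protein kinase gene, had compact groups instead, 9.91, 9.62 and 9.79 against 11.29, 11.24 and 11.42 (2.92-fold; limma adjusted p = 0.00214). AT1G50750, a gene of the plant mobile domain family, rose 2.97-fold, from 9.81, 9.99 and 9.95 to 11.53, 11.53 and 11.40 (limma adjusted p = 0.0176). Its SD was 0.10 with CHX alone and 0.08 with both agents (n = 3 each), small beside its change of 1.57.

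AT3G11930 encodes a protein like the bacterial universal stress protein. Its arrays lay at 9.26, 8.24 and 8.54 with CHX alone and at 10.14, 10.01 and 10.01 with both agents, 2.59-fold higher (limma adjusted p = 0.0191). AT5G01300, a gene of the phosphatidylethanolamine-binding protein family, rose 2.26-fold from 11.80, 11.11 and 10.84 to 12.37, 12.31 and 12.60 (limma adjusted p = 0.0465). Its call was lost in 16 of 22 alternatives, and only AT2G36220 lost more, at 18. AT2G47950 and AT2G47960 aside, AT5G45690 rose most among genes whose role is left out here, 6.02-fold. It went from 8.36, 7.66 and 8.19 to 10.95, 10.99 and 10.04 (log2 change 2.59, SE 0.27; limma adjusted p = 0.00124). AT1G27461 followed at 3.94-fold, from 11.03, 10.43 and 9.83 to 12.52, 12.38 and 12.32 (limma adjusted p = 0.00366). Both kept the call in each of the 22 alternatives.

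The remaining genes without a stated role rose between 1.84-fold and 3.84-fold. They were AT3G51750 (3.84-fold), AT2G19320 (3.61-fold), AT3G03170 (3.18-fold), AT3G15280 (2.78-fold), AT5G50360 (2.77-fold), AT5G07330 (2.57-fold), AT1G31750 (2.42-fold), AT2G21820 (2.22-fold), AT2G36220 (1.87-fold) and AT3G17780 (1.84-fold). The tightest of these was AT3G17780, with 10.23, 10.34 and 10.33 against 11.23, 11.05 and 11.27 (log2 change 0.88, SE 0.15; limma adjusted p = 0.0346), and the widest AT3G51750, with 9.67, 8.17 and 9.45 against 11.18, 10.65 and 11.27 (log2 change 1.94, SE 0.33; limma adjusted p = 0.0282).

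In the other direction no named gene passed. The ER body list, for the beta-glucosidase stores of root and seedling cells, had 7 of 16 entries measured and none called. None was above 0, beside 38.8% of all genes, and the median was -0.82, beside -0.13 over all genes. PYK10, the beta-glucosidase of these bodies, lay at 8.55, 8.66 and 8.44 with CHX alone and at 8.20, 8.37 and 8.74 with both agents, so its groups overlapped (log2 change -0.11, SE 0.18). NAI2, which is needed to form the bodies, had separated arrays, 10.44, 10.06 and 9.98 against 9.30, 9.48 and 9.32 (log2 change -0.79, SE 0.26; limma adjusted p = 0.444). NAI1, the transcription factor gene that controls them, had separated arrays too (log2 change -0.82, SE 0.34; limma adjusted p = 0.589). The jacalin-related lectin genes ran from JAL34 at -0.17 through JAL23 at -1.06 and JAL22 at -1.24 to JAL33 at -2.25 (SE 0.48; limma adjusted p = 0.108), with JAL33 at the floor on 2 of 3 arrays with both agents. The list median was -0.66 with centred arrays and -0.21 with a floor of 64, and 1 member was above 0 in each of these. The count of 0 called members became 1 without replicate 3 of both agents, without that array and replicate 1 of CHX alone together, and without the probe sets of lowest mean.

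Gene families searched by name gave no called gene outside the lists already described. Of 12 U-box and RING ubiquitin ligase genes PUB19 alone rose, and the family median was 0.17. Among all genes 38.8% had changes above 0. Serine carboxypeptidase and subtilase genes (36.4%) and cytochrome P450 genes (37.5%) were near that share. Lower shares were found for expansin (21.1%), bZIP (27.3%) and UDP-glycosyltransferase genes (27.9%). Peroxidase (4 of 9, 44.4%) and WRKY genes (4 of 7, 57.1%) had higher shares, but on so few genes that these are not read as a difference. None of 19 expansin genes, which loosen cell walls, was called, with 4 above 0 and a median of -0.44 (-0.28 centred, -0.17 with a floor of 64). The number above 0 was 6 with centred arrays or quantile normalization, and ran from 3 to 7 with 1 array left out. Expansins of largest change were EXPA16 at -1.40 (SE 0.67) and EXPA24 at 1.10 (SE 0.65). None of 43 UDP-glycosyltransferase genes was called (12 above 0, median -0.30), with AT5G54010 at -1.89 (SE 1.10) and UGT84B1 at -1.82 (SE 0.91). No call was made among 33 serine carboxypeptidase and subtilase genes (12 above 0, median -0.20; SBT4.13 at -1.48, scpl42 at 1.28) or 24 cytochrome P450 genes (9 above 0, median -0.08; CYP71B36 at -1.68, CYP71B37 at -1.07). The same count of 0 calls held for 22 bZIP genes (6 above 0, median -0.24; AT2G12900 at -0.98, bZIP42 at -0.82), 9 peroxidase genes (median -0.06; PRXR1 at -1.75, Prx37 at 1.18) and 7 WRKY genes (median 0.09; WRKY42 at -0.71, WRKY22 at 0.55). Except for EXPA24, WRKY42 and WRKY22, each of these named members from the expansins on had at least 1 of the 6 arrays at the floor. By name, 3 of 5 LEA genes and 1 of 2 dehydrin genes rose, all of them described above, while OLEO3, the cysteine protease gene CP1 (0.58, SE 0.44) and 2 MYB genes (AT5G47390 at 0.16 and MYBC1 at -0.09) were not called. Names of seed maturation proteins, cupins, lipid transfer proteins, protein phosphatases 2C, NAC and AP2/ERF factors, small and large heat shock proteins and cytosolic ribosomal proteins matched no measured gene. Only gene symbols and their synonyms were searched, so a family without a match can still have measured genes. The cupin and small heat shock protein genes described above are examples.

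**Figure D3:**
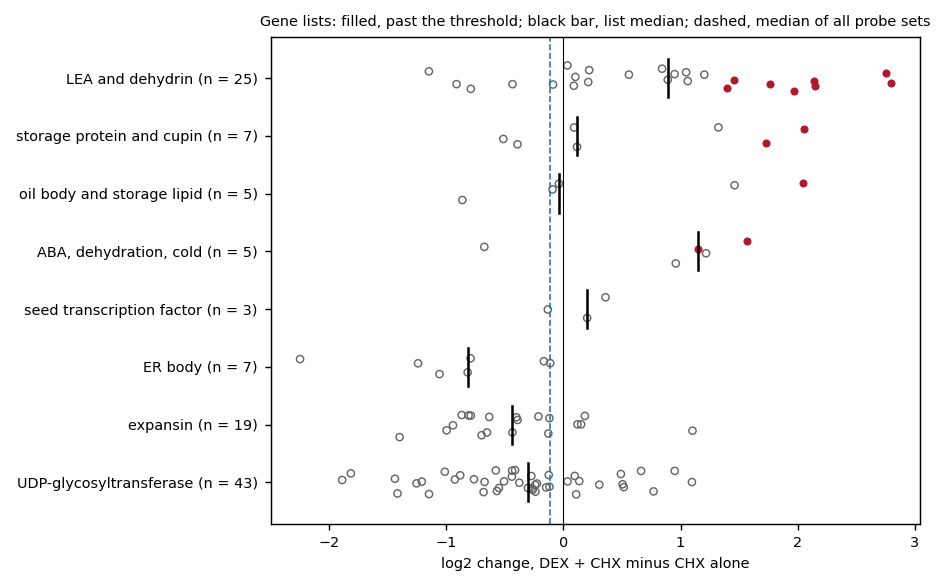
Each circle is a measured gene of 1 of 8 lists, placed at its log2 change from CHX alone to DEX with CHX; filled circles passed the threshold, the black bar is the list median and the dashed line the median of all probe sets. The filled circles sit in the LEA, storage, oil body and ABA lists, 8, 2, 1 and 2 in number, and the 7 ER body genes lie left of 0.

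The 5 genes of most negative change with separated arrays all lay low on the scale, at 6.38 or less with both agents. AT4G11710 (-2.97, SE 0.77; limma adjusted p = 0.252), AT5G28590 (-2.68, SE 0.64; limma adjusted p = 0.19), AT5G60080 (-2.63, SE 0.86; limma adjusted p = 0.439), AT5G61040 (-2.55, SE 0.57; limma adjusted p = 0.146) and AT4G16980 (-2.49, SE 0.78; limma adjusted p = 0.402) missed the threshold. Their CHX-alone arrays lay between 6.52 and 8.44. With both agents AT5G28590, AT4G11710 and AT5G61040 each had 2 arrays at the floor and AT4G16980 had 1, so the depth of these values is set in part by the floor. Across all genes, separation downward was found in 7.3% and upward in 4.16%. At an unadjusted p under 0.05 there were 1182 probe sets lower and 599 higher. Arrays with both agents had 6.30 to 15.8% of probe sets at or under the floor, against 5.23 to 9.66% with CHX alone. Their median intensities were 116 to 166, against 139 to 167. The part of these array differences in the excess of falls was not tested.

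The threshold fell inside a run of similar values. The 5 genes nearest to it on the missing side were TIL, a lipocalin gene of heat and cold responses (log2 change 0.74; limma adjusted p = 0.0506), AT4G31830 (1.27; limma adjusted p = 0.0509), AT1G02700 (1.44; limma adjusted p = 0.0513), AT5G16460, which encodes a seipin, a protein of oil body formation (1.91; limma adjusted p = 0.0531), and TET4, a tetraspanin gene (2.04; limma adjusted p = 0.0535). The last called gene, AT2G21820, had an adjusted p of 0.0474 in limma. In all 18 genes had adjusted p-values between the threshold and 0.10, 15 of them with changes above 0 and 3 under 0.

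The effect of DEX on the same genes was next examined without CHX, on the 6 arrays the 36 genes were not chosen on. DEX alone against untreated cells called 3 probe sets (0.0132%), and of the 36 genes only AT2G47950 was called higher (0.00749% of all genes). Its level was 7.10, 7.31 and 7.37 in untreated cells and 10.56, 10.61 and 10.25 with DEX alone, a 9.28-fold rise (log2 change 3.21, SE 0.34; limma adjusted p = 0.00778). The other probe sets called for DEX alone had no gene. Their log2 changes were 1.45 and 1.33 (limma adjusted p = 0.032 and 0.00778). Both were also called with CHX, at 1.65 and 1.26 (limma adjusted p = 0.00214 and 0.0022). All 3 probe sets called for DEX alone were thus called with CHX too. Of the 36 genes 24 had changes above 0 (66.7%), beside 61.5% of all genes, and the median was 0.25, beside 0.13 over all genes. In 14 of the 36 (38.9%) the arrays were separated upward, beside 7.05% of all genes, and in 1 they were separated downward, beside 4.01%. The spread of each probe set was estimated over all 12 arrays, so the comparisons are not fully independent. The number above 0 was 20 with centred arrays and 26 after quantile normalization.

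Among those 14 were LEA genes, a cupin gene and genes of other kinds whose changes did not pass the threshold. The cysteine protease gene AT3G54940 lay at 11.56, 11.94 and 11.50 untreated and at 12.85, 12.38 and 12.37 with DEX (log2 change 0.87, SE 0.28; limma adjusted p = 0.66). LEA18 read 13.94, 13.59 and 13.72 against 14.61, 14.08 and 14.33 (0.59, SE 0.22), and AT3G53040 read 13.86, 14.45 and 14.35 against 15.08, 14.67 and 14.85 (0.65, SE 0.21). The cupin gene AT2G28490 (0.88, SE 0.25), the dehydrogenase gene AT1G54870 (0.76, SE 0.19), the kinase gene AT5G35580 (0.82, SE 0.18) and AT1G50750 (1.22, SE 0.24) were also separated upward and not called. Others showed no such separation: AT4G36600 changed by 0.22 (SE 0.30), AT5G45690 by -0.01 (SE 0.27), PUB19 by -0.02 (SE 0.20) and AT3G22490 by -0.74 (SE 0.44). AT1G27461 was separated downward, 11.80, 12.14 and 11.87 against 11.71, 11.29 and 11.23 (-0.52, SE 0.25; limma adjusted p = 0.787).

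**Figure D4:**
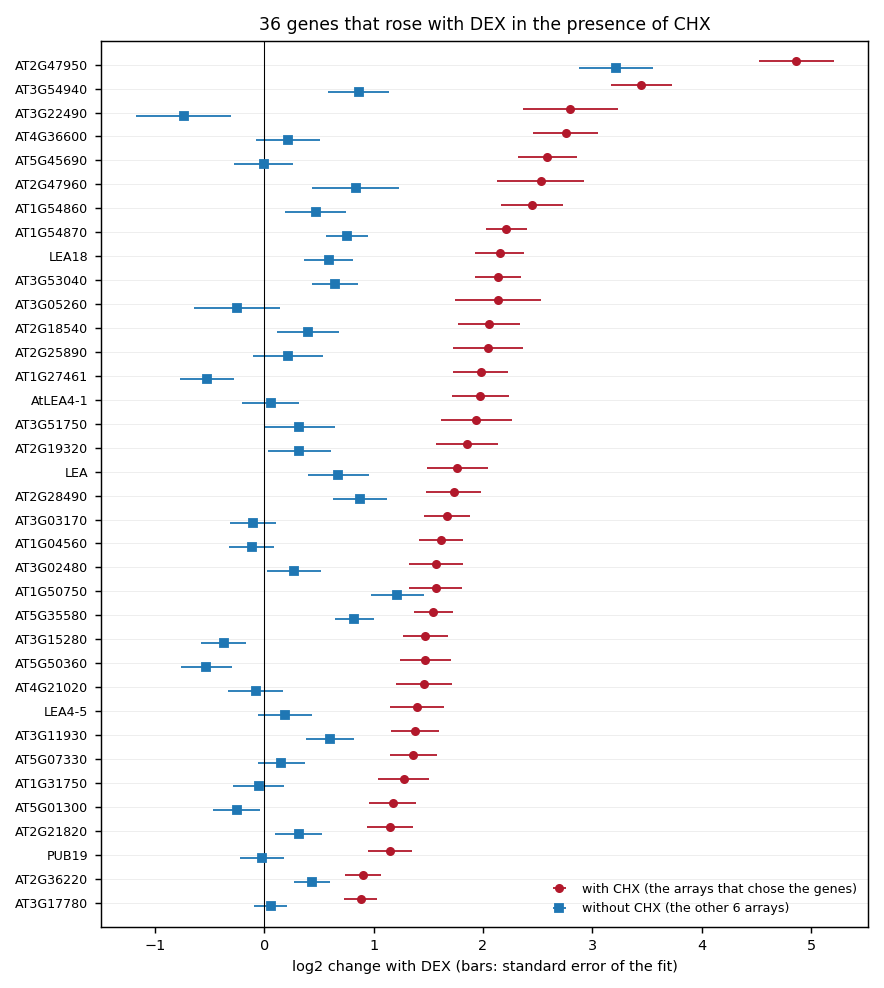
For each of the 36 genes, the log2 change with DEX is shown in the presence of CHX (red circles, the arrays that chose the genes) and without CHX (blue squares, the other 6 arrays), with bars of 1 standard error of the limma fit. The lowest red circle is at 0.88, while the blue squares run from -0.74 to 3.21.

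The change was larger with CHX than without it in each of the 36 genes, but they had been chosen for a large change with CHX, and none of these differences passed. In limma 1 probe set was called for the interaction over the whole array (0.0044%), none of them among the 36 genes, and 1814 had an unadjusted p under 0.05. The lowest adjusted p among the 36 was that of AT1G27461 (difference 2.50, SE 0.35; limma adjusted p = 0.0745). The difference for AT5G45690 was 2.59 (SE 0.38; limma adjusted p = 0.0841), for AT4G36600 2.54 (SE 0.42; limma adjusted p = 0.0974) and for AT3G54940 2.58 (SE 0.39; limma adjusted p = 0.0974). For AT2G47950 it was 1.65 (SE 0.48; limma adjusted p = 0.397).

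A rise over cells with CHX alone need not be a rise over untreated cells. The following levels are a description, because both comparisons share the arrays on which the genes were chosen. Low values with CHX alone made a gene more likely to be chosen. Shares over all genes are not given for these counts or for those with both agents below. The counts are therefore not read as a trait of the 36 genes. In 26 of the 36 genes all CHX-alone arrays lay below all untreated arrays, in 4 they lay above (AT1G50750, PUB19, AT2G36220 and AT3G17780), and in 6 they overlapped. Averaged over the 36 genes, the level was 11.31 to 11.41 on untreated arrays and 11.53 to 11.86 with DEX alone, above the values given for CHX alone.

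With both agents 17 genes stood above all untreated arrays, 8 stood below them and 11 overlapped. AT2G47950 stood highest over its untreated level, and the genes that CHX alone had already raised stood high as well: AT2G36220 read 9.73, 9.72 and 9.72 untreated, 12.93, 12.74 and 12.40 with CHX alone and 13.56, 13.52 and 13.70 with both. PUB19 read 9.68, 9.87 and 10.27 untreated, below its levels given above for CHX alone and for both agents. Several LEA genes came back to about their untreated level, among them AT3G53040, whose arrays with both agents overlapped those of untreated cells, and LEA4-5, at 14.03, 13.73 and 14.00 untreated and 14.04, 13.66 and 14.07 with both. The oleosin gene AT2G25890 overlapped in the same way, at 11.17, 11.34 and 10.72 untreated.

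The 8 genes that stayed below untreated cells were AT4G36600, LEA18, AT2G28490, AT3G15280, AT4G21020, AT3G11930, AT1G31750 and AT5G01300. The cupin gene AT2G28490 was the deepest of them, with 10.20, 10.38 and 10.09 untreated, 6.94, 5.92 and 6.23 with CHX alone and 8.24, 8.18 and 7.86 with both. LEA18, at 13.94, 13.59 and 13.72 untreated, likewise covered part of the distance between CHX alone and untreated cells.

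**Figure D5:**
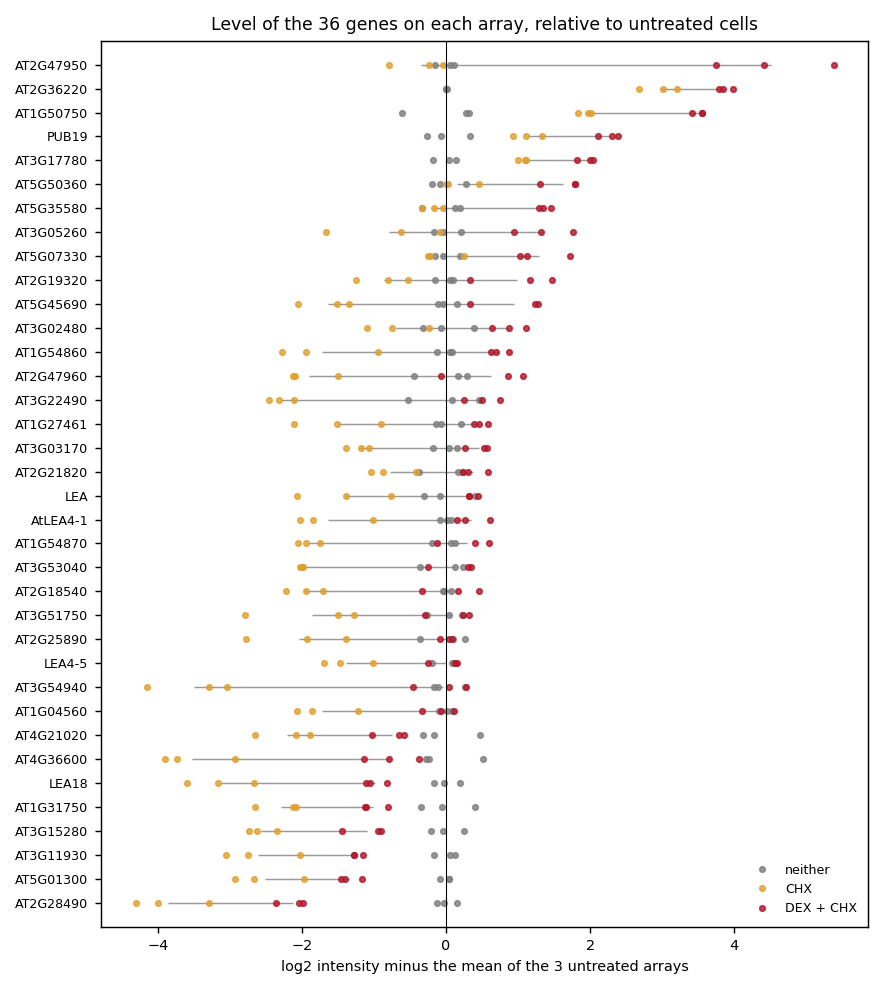
Each line is 1 of the 36 called genes and each point an array, placed at its log2 intensity minus the mean of the 3 untreated arrays; grey points are untreated cells, orange CHX alone and red DEX with CHX, and the thin line joins the means of the orange and red points. Red points lie right of all grey ones in 17 genes and left of all of them in 8.

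Probe sets without a single named gene made up the rest of the calls, 20 of the higher ones with no gene and 2 with several, and all 4 of the lower ones with no gene. The largest rises among those without a gene were 249082_at, 17.3-fold (log2 change 4.11, SE 0.49; limma adjusted p = 0.00252), and 260716_at, 11.5-fold (log2 change 3.52, SE 0.21; limma adjusted p = 1.48e-05). The first of them, 249082_at, read 5.26 and 5.80 with CHX alone on 2 arrays and lay at the floor on the other, and read 9.0, 9.07 and 9.31 with both agents. The largest falls were 253486_at, from 6.69, 6.62 and 6.74 to 4.42 on 1 array and the floor on the others (log2 change -2.55, SE 0.43; limma adjusted p = 0.0282), and 255561_at, from 6.79, 5.99 and 6.52 to 4.89 on 1 array and the floor on the others (log2 change -2.14, SE 0.39; limma adjusted p = 0.0469). The size of both falls is thus set in part by the floor.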

How the data were processed

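Total RNA of 12 samples was measured on Affymetrix arrays with 22810 probe sets. The authors deposited linear intensities, with 1 value for each probe set of an array. A trimmed mean (2% off each end) of 500.0 on all arrays shows that they were scaled, by software not named in these sources. Values under the floor of 16 were set to it before log2 was taken, and 64 control probe sets were left out. The platform annotation gave 1 gene for 13513 probe sets, several for 503 and none for 8730, and 13436 matched the TAIR10.1 gene table, used for names and neighbours only. The probe set with the highest mean stood for a gene measured more than once.

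Group means were fitted with limma 3.58.1 (lmFit, then eBayes with a variance trend) in R 4.3.3 on all 12 arrays, with Benjamini-Hochberg adjustment. The fit was tested on simulated data. Tables and figures were made with Python 3.11.15, pandas 2.3.3 and matplotlib 3.10.9.

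The comparison, its members and the gene lists were chosen with earlier results of these data known. Named genes are all genes called with CHX, the 5 most negative with separated arrays and the 5 nearest misses. List members that passed are named too, or else the 2 of largest change. Probe sets without a gene are at most 2 rising and 2 falling ones. Those called for DEX alone are given by their values only. Exceptions are named as such. Family names were searched as whole words, without clone names, a correction made after the first search had matched unrelated genes. Alternatives were other normalizations, floors, filters, variance models, the replicate number as a block, a minimum of 2-fold, and leaving out single arrays. Promoter sequences were not analysed here.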

Additional observations from a re-analysis of the deposited data

Results flagged for a closer look

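The unnamed probe set 260716_at was singled out because its response to DEX differed between cells with and without CHX in the test of that difference. Its level was 13.39, 13.09 and 13.15 in untreated cells, 13.97, 13.87 and 14.11 with DEX alone, 7.51, 7.35 and 6.58 with CHX alone and 10.75, 10.50 and 10.74 with both agents. The change with DEX was 3.52 with CHX and 0.77 without it, a difference of 2.75 (SE 0.30; limma adjusted p = 0.015), and both changes were above 0. It was the only probe set past the threshold for this difference.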

How the results depend on the processing

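The 62 calls (58 higher, 4 lower) became 28 without the variance trend (22 higher), 0 in the fit of only the 6 arrays compared (0 higher, 0 lower) and 29 without replicate 1 of CHX alone and replicate 3 of both agents (28 higher, 1 lower), the last chosen after seeing the data. Leaving out 1 array at a time gave 21 to 112 calls, 21 to 69 higher and 0 to 43 lower. The 4 lower calls became 1 with centred arrays, 7 with a floor of 64 and 7 without the probe sets of lowest mean. No sign of pairing by replicate number was seen between CHX alone and both agents. Deviations of same-numbered arrays correlated at 0.064, -0.132 and -0.087, and those of unlike-numbered arrays at -0.162 to 0.219. So few arrays cannot show that the samples were unpaired. With the replicate number as a block 45 probe sets passed, 1 of them lower, and the interaction count was 0. The single interaction call became 12 after quantile normalization, 7 with centred arrays, 0 with a floor of 64, 5 with a pseudocount of 1, 15 without the probe sets of lowest mean, 0 without the variance trend, 9 without the array pair above and 0 to 15 with 1 array left out. The causes were not tested. The number of the 36 genes above 0 without CHX, 24, ran from 20 to 29. Other settings moved the count of 62 calls by less than 1.5 times. The LEA count of 8 ran from 0 (6 arrays) to 11. Dim probe sets near the floor limit what can be seen of falls.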

Other observations

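Other genes close to the threshold had seed or stress roles or none stated here, and their values led to the choice of those named here. ATOEP16-2, which encodes a channel-like protein of the plastid envelope, lay at 8.02, 7.38 and 8.23 with CHX alone and 9.50, 10.24 and 8.79 with both agents (log2 change 1.63, SE 0.31; limma adjusted p = 0.0565). The seipin gene AT5G16460 lay at 7.51, 7.90 and 7.39 with CHX alone and 9.31, 9.09 and 10.13 with both, and the tetraspanin gene TET4 at 6.90, 6.47 and 6.94 and 8.62, 8.41 and 9.41. In each of these the groups were separated, and none was called.

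Of the 3 genes with an adjusted p under 0.10 and a change under 0, AT5G14970 was the only one clear of the floor, at 8.04, 7.71 and 7.89 with CHX alone and 6.39, 6.86 and 6.56 with both agents (log2 change -1.28, SE 0.27; limma adjusted p = 0.0972). AT3G57030 (-2.14, SE 0.42; limma adjusted p = 0.0713) and AT5G50170 (-2.30, SE 0.46; limma adjusted p = 0.0809) each had at least 1 array with both agents at the floor.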
